A study of Mus musculus with 44 samples.

Results

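Chemokine and chemokine receptor genes were followed in mouse liver across 3 genotypes and 3 diets. The members were taken by symbol: every Ccl, Cxcl, Ccr and Cxcr gene followed by a number, Cx3cl1, Cx3cr1, Xcl1, Xcr1 and Ackr1 to Ackr4, without pseudogenes, which gave 58 of the 35249 genes in the deposited count table. Bulk RNA sequencing of whole liver gave 44 libraries, 1 per sample label. WT mice and mice labelled Ripk3-/- or Mlkl-/-, knockouts of the kinase and the pore-forming effector of the cell death programme called necroptosis, were 2 months old when they were put on normal chow (the control diet), on CD-LFD or on CD-HFD, the choline deficient low fat and high fat diets, for 6 months. WT had 6 libraries on each diet. Ripk3-/- had 6 on the control diet, 3 on CD-LFD and 4 on CD-HFD, and Mlkl-/- had 6, 4 and 3. The labels give no sex, litter, allele or batch, and they do not say that each library is a separate mouse, so p-values measure the spread between these libraries.

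Library totals ran from 2476268 to 12471844 counts in 43 libraries and reached 88204703 in WT CD-LFD replicate 3, and the 58 genes took 0.0294% to 0.0901% of a library's counts. The summed level of 5 hepatocyte markers averaged 64424 to 120084 CPM (counts scaled by library size) over the 9 groups. Ripk3 had 3 to 102 counts in each WT library and 0 to 2 in the Ripk3-/- libraries, apart from the library labelled Ripk3-/- control replicate 5, which had 9 counts, or 1.01 CPM. Mlkl was counted in every Mlkl-/- library, and the labels do not give the deleted part of the gene, so its count does not check that label; the library labelled Mlkl-/- CD-HFD replicate 1 had the most, at 14.4 CPM. Without these 2 libraries the counts of changed members in the 6 diet comparisons below moved by at most 2.

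Chemokines are small secreted proteins, in a few cases tethered to the membrane, that guide leukocytes along a gradient by binding G protein coupled receptors. CXC ligands with a glutamate-leucine-arginine motif draw neutrophils through Cxcr2, CC ligands such as Ccl2 draw monocytes through Ccr2, and the interferon-induced ligands Cxcl9 and Cxcl10 draw T and natural killer cells through Cxcr3. The atypical receptors Ackr1 to Ackr4 bind chemokines without G protein signalling and transport or remove them. In the liver, Kupffer cells, hepatocytes, endothelial and stellate cells all make chemokines, and the Ccl2 and Ccr2 axis is known for bringing monocytes into steatotic liver.

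4 promoters are shown because the 4 genes carry the results on neutrophil and lymphocyte ligands. Each is the stretch of 250 bases before the RefSeq start in GRCm38.p6, 5′ to 3′ on the gene's strand, and all 4 genes lie on chromosome 5. They are chr5:90890995-90891244 (plus strand) for Cxcl1, chr5:90903649-90903898 (plus strand) for Cxcl2, chr5:92328080-92328329 (minus strand) for Cxcl9 and chr5:92348890-92349139 (minus strand) for Cxcl10. Capitals mark matches to the kappaB motif (GGG and TTCC with 2 or 3 bases of any kind between them), the interferon-stimulated response element (GAAA and GAAA with 2 bases between them) and the TATA box (TATAAA), searched on both strands.
Cxcl1: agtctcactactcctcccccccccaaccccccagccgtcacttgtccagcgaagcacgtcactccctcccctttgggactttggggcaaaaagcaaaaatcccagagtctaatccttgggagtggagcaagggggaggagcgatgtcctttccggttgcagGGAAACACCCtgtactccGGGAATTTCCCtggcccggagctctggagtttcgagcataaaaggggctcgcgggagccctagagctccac
Cxcl2: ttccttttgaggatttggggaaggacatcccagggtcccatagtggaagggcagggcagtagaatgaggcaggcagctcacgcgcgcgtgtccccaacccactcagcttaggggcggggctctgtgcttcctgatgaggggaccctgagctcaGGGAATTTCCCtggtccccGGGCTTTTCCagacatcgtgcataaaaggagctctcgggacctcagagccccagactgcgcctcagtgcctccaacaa
Cxcl9: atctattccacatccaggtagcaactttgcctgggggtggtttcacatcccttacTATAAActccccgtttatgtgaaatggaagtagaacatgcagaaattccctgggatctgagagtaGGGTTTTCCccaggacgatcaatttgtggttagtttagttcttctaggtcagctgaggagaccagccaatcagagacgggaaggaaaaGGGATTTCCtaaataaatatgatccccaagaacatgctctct
Cxcl10: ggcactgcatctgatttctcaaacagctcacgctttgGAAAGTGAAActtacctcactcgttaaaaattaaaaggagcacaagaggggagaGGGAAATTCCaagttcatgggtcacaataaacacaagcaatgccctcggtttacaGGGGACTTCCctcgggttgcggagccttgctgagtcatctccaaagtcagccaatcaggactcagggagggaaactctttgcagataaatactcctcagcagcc
In Cxcl1 and in Cxcl2 the same palindrome-like run held a match on each strand, and those matches overlap each other. Counted back from the start, Cxcl1 held a further match from -89, on the other strand, and Cxcl2 one from -78. Cxcl10 held kappaB matches from -159 and -104, the latter fitting both forms of the motif, and the interferon-stimulated response element from -213. Cxcl9 held kappaB matches from -130 and -42 and TATAAA from -195. The RefSeq table had a promoter for 44 of the 58 genes. Of these, 13 (29.5%) held a kappaB match, against 8.26% of all 32851 promoters of that length, and 3 (6.82%) held the interferon-stimulated response element, against 2.98%. TATAAA was in 14 (31.8%), against 12.4%, and the GAS motif (TTC and GAA with 3 bases between them) in 4 (9.09%), against 7.02%. The member shares count a gene if any of its promoters held a match, while the shares of all promoters count each promoter separately. A match describes the letters only.

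Of the 58 genes, 41 had enough counts to be tested. The 17 others were the ligands Ccl1, Ccl8, Ccl11, Ccl12, Ccl17, Ccl28, Cxcl3, Cxcl15 and Cxcl17 and the receptors Ccr1l1, Ccr3, Ccr4, Ccr6, Ccr8, Ccr10, Cxcr1 and Cxcr5. Exons of Ccl25, Ccl27a, Cxcl10, Cxcl11, Cxcl16, Cxcr5, Cx3cr1, Xcl1, Ackr4 and Ccr9 overlap a gene on the other strand, and those of Ackr1 (Cadm3) and Ccr9 (Gm17200) one on the same strand. Whether the counting used strand is not given in the sources used here, so reads of such pairs may be shared. The question of the diet comparisons was how a choline deficient diet moved each gene within a genotype. On CD-HFD, 30 of the 41 tested genes rose in WT liver and 4 fell (edgeR quasi-likelihood test, Benjamini-Hochberg adjusted p under 0.05), where 23.5% of all 14862 tested genes rose and 24.1% fell. Of 26 ligands, 19 rose and 3 fell, and among 4 atypical receptors 1 fell and the other 3 had unadjusted p-values of 0.205 to 0.818. The members' median log2 change was 2.75, beside -0.07 over all tested genes. With libraries scaled by size alone the median of all genes moved to 0.43 and the split of all genes to 45.8% higher and 6.86% lower, and 31 members rose and 3 fell. On CD-LFD, 22 rose and 3 fell (background 13.7% and 14%), with a median of 1.94 beside -0.03. In bulk tissue more cells of a type and more RNA per cell cannot be told apart.

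A gene that is nearly silent on the control diet enters the test only if it is high elsewhere, so the members were also read by their control level. Of the 15 members at or above 1.48 CPM in WT control liver, the level that corresponds to the count filter, 9 rose and 3 fell on CD-HFD, where 16.4% of all genes in that range rose and 29.4% fell. Of the 26 below it, 21 rose and 1 fell, where 53.5% rose and 1.86% fell. The split was not by the group mean. Among the 26 was Cxcl13 (0.244 to 4.56 CPM), the 1 that fell, and among the 15 was Cxcl10 (0.733 to 2.2 CPM). On CD-LFD 5 of the 15 rose and 2 fell (10.1% and 17% of genes), and 17 of the 26 rose and 1 fell (29% and 1.02%). The CD-HFD libraries lay wholly above the control libraries for 28 tested members and wholly below for 3, against 14.3% and 6.63% of all tested genes, and the CD-LFD libraries lay above for 14 and below for 0 (5.04% and 2.58%).

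**Figure D1:**
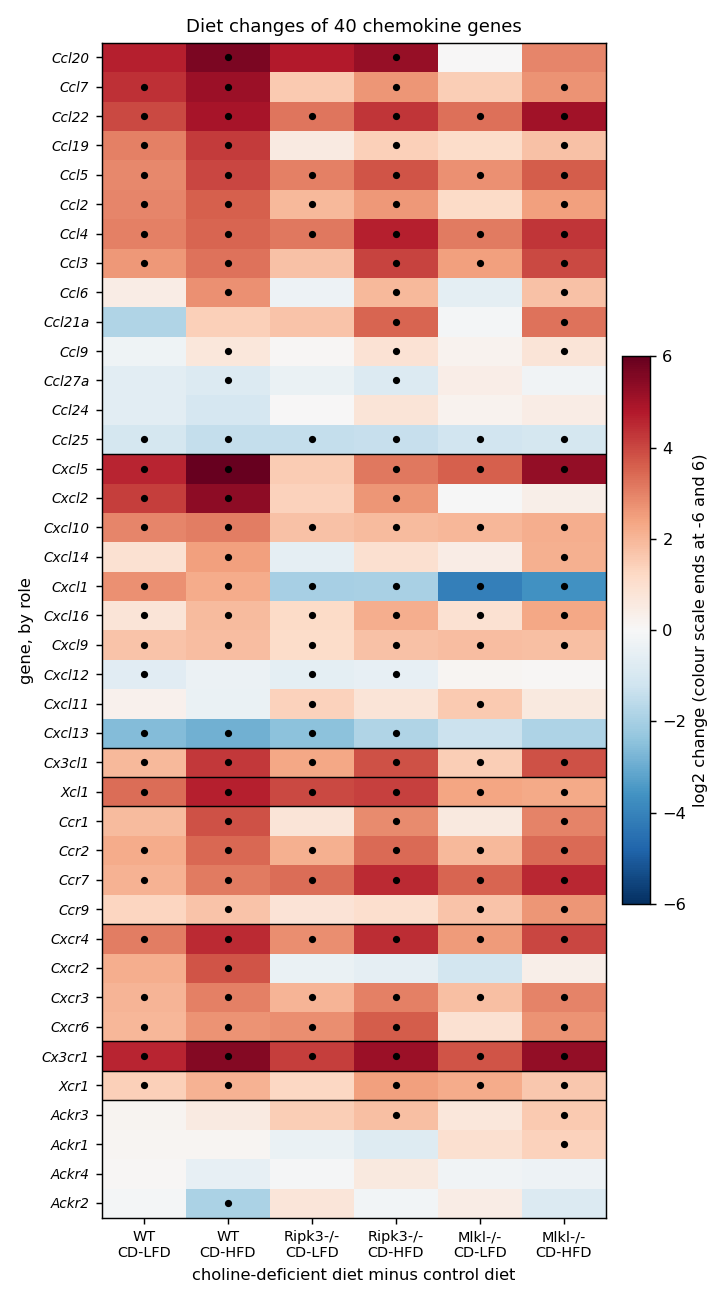
Log2 change against the same genotype's control diet for 40 of the 41 tested chemokine and receptor genes (vertical) in 6 diet comparisons (horizontal), coloured from -6 to 6 and grouped by role; a dot marks an adjusted p under 0.05. Most ligands and the signalling receptors shown were higher on CD-HFD in WT, the Ccl25 row was lower in all 6 columns, and Cxcl1 was higher on both diets in WT and lower on both in the knockouts.

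Among the neutrophil ligands, Cxcl1 stood at 1.83 to 10.8 CPM in WT control liver (median 3.98), at 11.2 to 97.9 on CD-LFD (median 24.9) and at 16.6 to 34.3 on CD-HFD (median 24). Neither diet group overlapped the control group. The mean rose 4.68-fold on CD-HFD (log2 2.22, SE 0.636, edgeR adjusted p = 0.0037) and 6.62-fold on CD-LFD (log2 2.72, SE 0.639, adjusted p = 0.00138). WT CD-LFD replicate 1 held the 97.9 CPM, and without it the CD-LFD rise was 4.35-fold (log2 2.11, edgeR adjusted p = 0.0103). Cxcl2, the neighbouring gene with the same activity, was at 0 in 5 of 6 WT control libraries and at 1.46 to 2.7 CPM on CD-HFD, 55.3-fold higher with a 95% counting interval of 9.73 to 2203 (edgeR adjusted p = 8.94e-07). Such an interval is given where a group held 1 to 3 counts in all its libraries, and a bound against 3 counts over the group where it held 0. Cxcl5, a further Cxcr2 ligand, was at 0 in all 6 control libraries and at 1.3 to 2.31 CPM under CD-HFD, at least 15.1-fold higher (edgeR adjusted p = 1.4e-07). Cxcr2 itself, the neutrophil receptor for all of them, was at 0.655 to 2.27 CPM on CD-HFD and at 0 in 5 control libraries, 16.4-fold higher (counting interval 4.38 to 139, edgeR adjusted p = 0.000688). The summed level of 5 neutrophil markers averaged 5.75 CPM in WT control, 12.5 on CD-LFD and 23.5 on CD-HFD (0.922 to 11.2, 6.92 to 20.9 and 17.6 to 33.1), and Csf3r, the most abundant of the 5, made most of the rise (3.65, 9.66 and 18.1 CPM). On CD-LFD S100a8 and S100a9 gave log2 0.33 and 0.13 (edgeR adjusted p = 0.727 and 0.901), and on CD-HFD S100a8 rose (adjusted p = 0.0232) while S100a9 gave log2 0.99 (adjusted p = 0.145). The defining marker Ly6g was at 0 in WT control and in WT CD-HFD; the part of these cells in the changes was not tested.

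In the monocyte and macrophage axes both ligands and receptors rose. Cx3cr1, the receptor for the membrane-bound ligand Cx3cl1, was at 0 to 1.71 CPM in WT control liver, at 6.81 to 21.5 under CD-LFD and at 15.6 to 35.8 under CD-HFD. Its mean rose 44.2-fold on CD-HFD (log2 5.53, SE 0.462, edgeR adjusted p = 6.74e-13) and 22.9-fold on CD-LFD (log2 4.57, SE 0.476, edgeR adjusted p = 1.47e-09), with no overlap of either group with the control. Cx3cl1 rose from 0.708 ± 0.353 CPM (SD, n = 6) to 2.82 ± 0.836 on CD-LFD and 13.4 ± 3.88 on CD-HFD, 3.99-fold and 18.9-fold. Ccr2, which brings monocytes out of the blood, went from 0.276 to 2.69 CPM in control to 3.77 to 9.86 under CD-LFD and 12.9 to 17.7 under CD-HFD, 4.3-fold and 9.83-fold (edgeR adjusted p = 4.86e-05 and 8.69e-10). Its ligand Ccl2 lay between 0.244 and 2.2 CPM, then 2.72 and 11.3, then 6.92 and 11.8, a rise of 7.59-fold and 12-fold (edgeR adjusted p = 3.49e-05 and 1.24e-07). Ccl7, a second Ccr2 ligand, was at 0 to 0.17 CPM in control and 1.37 to 2.31 under CD-HFD, 47.2-fold higher (counting interval 8.28 to 1883). WT control replicate 6 held the highest control values of Cx3cr1 and Ccl2 (1.71 and 2.2 CPM); without it the rises on CD-HFD and CD-LFD were 74-fold and 38.2-fold for Cx3cr1 and 19.4-fold and 12.3-fold for Ccl2. For Ccr2 and Ccl2 the order of the 3 diets was the same, and the step from CD-LFD to CD-HFD passed the test for Ccr2 (log2 1.22, edgeR adjusted p = 0.00181) but not for Ccl2 (log2 0.66, adjusted p = 0.202).

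The inflammatory CC ligands Ccl3, Ccl4 and Ccl5 rose on CD-HFD in WT, as did Ccr1, a receptor for Ccl3 and Ccl5. Ccl5, made largely by T and natural killer cells, stood at 0.307 to 2.28 CPM in control, 3.01 to 10.5 on CD-LFD and 9.82 to 18.8 on CD-HFD, 6.71-fold and 14.7-fold higher (edgeR adjusted p = 3.78e-05 and 5.32e-09). Ccl3 rose 8.97-fold and Ccl4 12.3-fold on CD-HFD (Ccl4 23.9-fold without WT control replicate 6, which held 0.733 CPM). Ccr1 was at 1.14 to 2.38 CPM under CD-HFD, 15.7-fold above control (counting interval 5.23 to 77.6), and on CD-LFD missed the threshold (log2 1.92, edgeR adjusted p = 0.0657). Ccl6 and Ccl9, rodent CC ligands of myeloid cells that bind Ccr1, were higher on CD-HFD but not on CD-LFD: Ccl6 at 0.913 to 4.14 CPM in control, 1.33 to 4.88 on CD-LFD and 12.1 to 32.4 on CD-HFD (7.36-fold, edgeR adjusted p = 1.13e-07), and Ccl9 at 48.1 ± 14.6, 39.8 ± 3.67 and 77.8 ± 11.2 (SD, n = 6; 1.62-fold, edgeR adjusted p = 0.000169, groups overlapping). The step between the diets passed the test for both, as given below. Ccl24, a ligand of the eosinophil receptor, fell short of the threshold (log2 -0.99, edgeR adjusted p = 0.158).

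The ligands of Cxcr3, the receptor of activated T and natural killer cells, did not move alike. Cxcl10 went from 0.733 to 2.2 CPM in WT control to 6.42 to 25.1 on CD-LFD and 10.2 to 17.2 on CD-HFD, 7.77-fold and 8.59-fold higher (edgeR adjusted p = 3.44e-06 and 1.94e-07). Cxcl9 went from 4.11 to 8.06 CPM to 9.77 to 25.9 and 11.4 to 36.2, 3.36-fold and 3.66-fold higher (edgeR adjusted p = 3.56e-05 and 2.28e-06). Both were near the same level on the 2 diets (CD-HFD minus CD-LFD log2 0.16, SE 0.336, and 0.13, SE 0.265). Cxcl11 was at 2.72 to 14.7 CPM in control and 2.18 to 7.74 on CD-HFD (log2 -0.41, edgeR adjusted p = 0.348). Cxcr3 rose 11.4-fold on CD-HFD, with overlapping groups (log2 3.01, SE 0.632, edgeR adjusted p = 0.000123); it was at 0 in 4 of the 6 control libraries, and without control replicate 3, at 0.851 CPM, the ratio was 68.1. The membrane-anchored ligand Cxcl16 stood at 6.49 to 11.7 CPM in control, 10.2 to 19.7 on CD-LFD and 23.5 to 41.5 on CD-HFD, 1.74-fold and 3.75-fold higher (edgeR adjusted p = 0.00546 and 1.33e-09). Its receptor Cxcr6, found on natural killer T and tissue-resident T cells, rose 6.27-fold under CD-HFD.

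Cxcr4 rose while its ligand Cxcl12 did not. Cxcr4, which leukocytes use to home to and stay in tissue, was at 0 to 0.977 CPM in WT control liver, 1.84 to 6.7 on CD-LFD and 9.83 to 19.3 on CD-HFD, 9.88-fold and 25.7-fold higher (edgeR adjusted p = 1.23e-07 and 5.7e-13). Cxcl12, a constitutive stromal and endothelial ligand, stood at 304 ± 87.2, 188 ± 37.3 and 242 ± 52 CPM (SD, n = 6), fell by 0.70 on the log2 scale on CD-LFD (edgeR adjusted p = 0.0021, groups overlapping) and on CD-HFD missed the threshold (log2 -0.33, adjusted p = 0.11). The fall on CD-LFD missed the threshold when libraries were scaled by size alone (log2 -0.39, edgeR adjusted p = 0.0542).

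Among ligands of the lymphoid organs and of dendritic cells, Ccl22, made by dendritic cells and macrophages, was at 0 to 0.489 CPM in control and 1.7 to 4.47 under CD-HFD, 36.5-fold higher (counting interval 9.92 to 304, edgeR adjusted p = 8.22e-07). Its receptor Ccr4 had too few counts for the test. Ccr7, which guides dendritic cells and naive T cells to lymph nodes, rose 8.85-fold on CD-HFD and 4.45-fold on CD-LFD, with no overlap in either (edgeR adjusted p = 1.3e-06 and 0.00222), and 14.4-fold and 7.26-fold without WT control replicate 6. Its ligand Ccl19 was at 0 to 0.341 CPM in control and 0.974 to 2.06 under CD-HFD, 21.2-fold higher (counting interval 5.7 to 178), and Ccl21a missed the threshold (log2 1.44, edgeR adjusted p = 0.096); both have near-identical copies in the genome that could share reads. Xcl1 was at 0.609 to 1.75 CPM on CD-HFD and 0 to 0.17 in control (34.3-fold, counting interval 5.97 to 1374, edgeR adjusted p = 1.47e-06), and Xcr1, the receptor of cross-presenting dendritic cells, was 3.62-fold higher. Ccl20, a ligand of Ccr6, was at 0 in all control libraries and at 0.242 to 1.75 CPM on CD-HFD (edgeR adjusted p = 0.0091, at least 6.04-fold higher). Cxcl14, a ligand of epithelia, rose 5.45-fold, from 1.53 to 4.56 CPM to 9.83 to 18.2 (edgeR adjusted p = 2.58e-05).

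On CD-LFD in WT the largest changes were in part of the same low genes. Besides Cx3cr1 and Cxcr4, they were Cxcl5, at 0 to 0.543 CPM and at least 2.35-fold above control (edgeR adjusted p = 0.00444), Ccl7 at 0.167 to 2.65 CPM (18.3-fold, counting interval 3.19 to 731), Cxcl2 at 0.334 to 1.95 (22.3-fold, 3.91 to 888), Ccl22 at 0.558 to 2.47 (15.2-fold, 4.13 to 127), Xcl1 at 0.279 to 1.07 (10.4-fold, 1.77 to 418) and Ccl19 at 0.167 to 1.45 (7.71-fold, 2.06 to 64.9). Their edgeR adjusted p-values were 0.00058, 0.000745, 0.000367, 0.00367 and 0.00172 from Ccl7 to Ccl19. These ratios pool the counts of a group, in which the deeply sequenced CD-LFD replicate 3 weighs most.

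4 members fell on CD-HFD in WT. Ccl25, the gut and thymus ligand of Ccr9, stood at 5.23 to 18.7 CPM in WT control, 3.33 to 5.68 on CD-LFD and 2.34 to 3.92 on CD-HFD, and fell by 1.44 on the log2 scale on CD-HFD (SE 0.216, edgeR adjusted p = 5.48e-07, no overlap) and by 1.07 on CD-LFD (adjusted p = 0.000203). Ccr9 itself rose 3.67-fold on CD-HFD (edgeR adjusted p = 0.00273). Ligand and receptor thus went opposite ways there. Cxcl13, the B cell follicle ligand, was at 0.244 to 4.56 CPM in control and 0 to 0.244 on CD-HFD, 9.07-fold lower (edgeR adjusted p = 0.000418; 5.5-fold without WT control replicate 5, which held the 4.56); with the clock gene ratio described below as a covariate it missed the threshold (log2 -1.88, adjusted p = 0.1). Ackr2, which scavenges inflammatory CC chemokines, was at 1.71 to 3.91 CPM in control, 1.67 to 4.01 on CD-LFD and 0.216 to 1.05 on CD-HFD, 3.8-fold lower on CD-HFD (edgeR adjusted p = 0.000363) with no overlap. Ccl27a fell by 0.80 on the log2 scale (edgeR adjusted p = 0.012, groups overlapping); without WT control replicate 5, whose 26.5 CPM was the highest, it missed the threshold (log2 -0.52, adjusted p = 0.088), and it has near-identical copies. The atypical receptors Ackr1, Ackr3 and Ackr4 ranged from -0.49 to 0.55 on the log2 scale in WT on CD-HFD and did not pass the test.

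**Figure D2:**
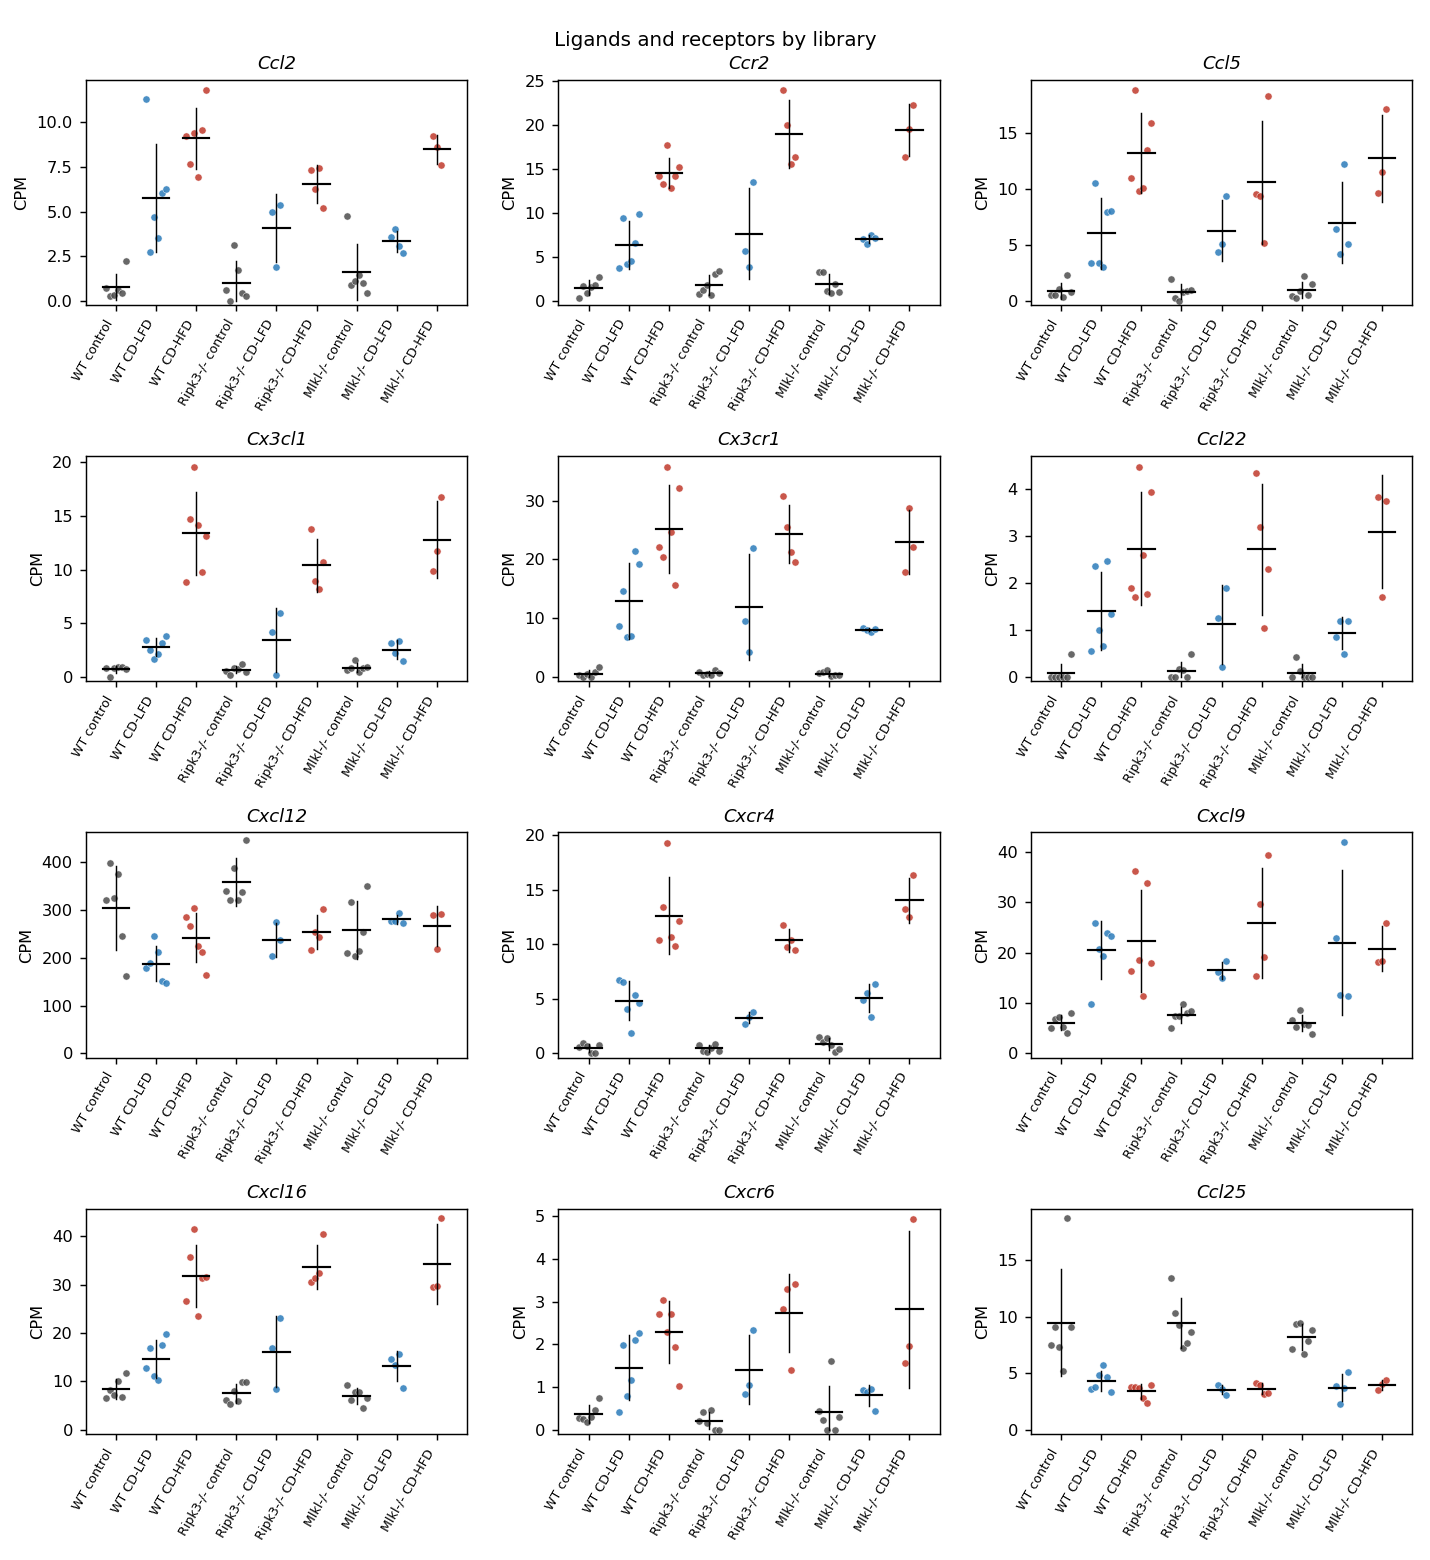
CPM of 12 ligands and receptors (1 panel each, vertical axis from 0) in every library of the 9 groups (horizontal), control grey, CD-LFD blue and CD-HFD red, with the mean and SD of each group. The group means of Cx3cr1, Ccr2 and Cxcr4 step up from control to CD-LFD to CD-HFD in each genotype, and Ccl25 steps down from control.

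Markers of the cells that carry these receptors moved with the diets. In WT, the summed level of 5 recruited macrophage markers averaged 59.2 CPM in control, 285 under CD-LFD and 1351 under CD-HFD (48.4 to 69.9, 186 to 400 and 983 to 1936), and all 5 rose on both diets. Those of 4 monocyte markers averaged 4.7, 11.8 and 26.6 CPM, mostly from Plac8 (4.36, 10.7 and 23.3). On CD-LFD F13a1 and Ly6c2 missed the threshold (edgeR adjusted p = 0.132 and 0.069). The sums of 5 T cell markers averaged 3.52, 6.52 and 15.3 CPM (Cd8a and the 3 Cd3 genes rose on both diets, while Cd4 fell on CD-LFD from 2.52 to 0.832 CPM, edgeR adjusted p = 0.0117, and gave log2 -0.12 on CD-HFD), of 3 natural killer markers 1.49, 2.37 and 4.12 (Ncr1 at 0 in WT control) and of 5 dendritic cell markers 5.46, 12.5 and 16. Those of 5 Kupffer cell markers averaged 148, 83.1 and 80.7 CPM. Marco and Timd4 fell on both diets and Clec4f on CD-HFD alone. On CD-HFD Cd5l and Vsig4 gave log2 0.16 and -0.53 and did not pass the test, nor did they on CD-LFD. The sums of 5 endothelial markers averaged 159, 110 and 84.9 CPM, of 5 stellate markers 208, 324 and 614 (Col1a1, Dcn and Des rose on both diets, while Lrat and Reln gave log2 -0.36 and -0.38 on CD-HFD and did not pass the test), of 4 cholangiocyte markers 20.9, 36.9 and 98.2 and of 4 B cell markers 4.05, 6.39 and 6.1. The 5 hepatocyte markers summed to 117440, 82593 and 64424 CPM, and 3 of them fell on CD-LFD and all 5 on CD-HFD. The part of these cell types in the chemokine values was not tested.

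Between the choline deficient diets in WT, 18 members were higher on CD-HFD than on CD-LFD and 1 was lower (background 13.7% and 7.4%), with a median log2 difference of 0.96 beside -0.01. With the clock gene ratio described below as a covariate, 12 were higher and 1 was lower (background 12.1% and 5.77%). That log2 ratio ran from -2.63 to -0.27 in the CD-LFD libraries and from -6.12 to -2.10 in the CD-HFD libraries. Cx3cl1 (4.74-fold), Ccl6 (5.06-fold), Cxcl5 (4.9-fold), Ccr1 (3.44-fold) and Cxcl14 (2.89-fold) were higher on CD-HFD with no overlap, and Ackr2 was 3.58-fold lower with no overlap. Ccl6 gave a log2 difference of 2.30 (SE 0.339, edgeR adjusted p = 2.41e-06), Ccl9 one of 0.97 (SE 0.146, adjusted p = 4.12e-06), Ackr2 one of -1.81 (SE 0.415, adjusted p = 0.00116) and Ccr1 one of 1.89 (adjusted p = 0.0017). Ccl21a was 8.79-fold higher and Cxcr2 3.05-fold higher, with overlapping groups and CD-LFD means of 0.215 and 0.404 CPM; without CD-LFD replicate 5 the ratios were 17.2 and 4.69. Ccr1 missed the threshold with the clock covariate (edgeR adjusted p = 0.0546), and Cxcr2 without any 1 of 8 libraries (adjusted p 0.0573 to 0.127). The wholly separated groups numbered 10 higher and 1 lower, against 7.63% and 3.69% of all tested genes.

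In the knockouts, the count of members that rose on CD-HFD was close to the 30 of WT. In Ripk3-/- liver 28 rose and 5 fell (background 24.6% and 21.7%), and in Mlkl-/- liver 29 rose and 2 fell (24.9% and 20.3%), with median log2 changes of 2.16 and 2.20 beside -0.05 and -0.04. With libraries scaled by size alone, which moved the median of all genes to 0.49 in both comparisons, the Ripk3-/- split was 32 and 1, against 46.2% and 4.96% of all genes under that scaling. Of the 27 Ripk3-/- members under the control level of 1.48 CPM, 21 rose, where 57.4% of such genes did, and of the 14 at or above it 7 rose and 4 fell (16% and 26.8%). In Mlkl-/- 21 of the 26 members under it rose (56.3%), and of the 15 at or above it 8 rose and 2 fell (16.8% and 25.4%). 24 members rose on CD-HFD in all 3 genotypes, each against its own control libraries, where 17.9% of all tested genes did. That share covers genes of any control level. Most of the 24 lay under 1.48 CPM in control, where 53.5%, 57.4% and 56.3% of genes rose in WT, Ripk3-/- and Mlkl-/-. Cx3cr1 rose from 0.315 to 1.26 CPM in Ripk3-/- control to 30.8, 25.6, 21.3 and 19.6 on CD-HFD, 36.7-fold, and from 0.146 to 1.13 CPM in Mlkl-/- control to 17.9, 28.7 and 22.1, 39.2-fold (edgeR adjusted p = 1.65e-12 and 2.08e-12). Cxcr4 rose 23-fold and 15.9-fold and Cx3cl1 15.1-fold and 14.5-fold. Ccl22 rose 20.3-fold in Ripk3-/- (42.4-fold without control replicate 6) and 38.2-fold in Mlkl-/- (counting interval 12.5 to 190). Ccr7 rose 21.2-fold and 25.2-fold (the latter 44.8-fold without Mlkl-/- control replicate 5) and Ccl3 19.1-fold and 17.9-fold (the latter 29.7-fold without Mlkl-/- control replicate 3). Ccl4 rose 31.3-fold (8.34 to 263) and 23-fold (7.31 to 117). These 4 genes held few counts in the knockout controls, with means of 0.0504 to 0.203 CPM. Xcl1 was 25.5-fold higher in Ripk3-/- (4.23 to 1043), where Ccl20 was at 0 in the control and averaged 0.592 CPM on CD-HFD, and Cxcl5 was 58.2-fold higher in Mlkl-/- (9.72 to 2368). Groups lay wholly apart for 26 higher and 2 lower members in Ripk3-/- (20.6% and 15.9% of all genes) and for 25 and 1 in Mlkl-/- (22.2% and 17.2%).

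On CD-LFD, 16 members rose and 4 fell in Ripk3-/- (background 14% and 10.1%; 20 and 1 when scaled by library size alone, against 26.3% and 3.45%) and 19 rose and 2 fell in Mlkl-/- (19.7% and 18.3%). Of the members under the control level of 1.48 CPM, 11 of 27 rose in Ripk3-/-, where 30.8% of such genes did, and 13 of 26 in Mlkl-/- (34.5%). Of those at or above it, 5 of 14 rose and 3 fell in Ripk3-/- (9.56% and 12.6%), with a median log2 change of 0.03, and 6 of 15 rose and 2 fell in Mlkl-/- (15.9% and 22.8%). Cx3cr1 stood at 9.58, 4.22 and 21.9 CPM in the 3 Ripk3-/- libraries, 17.9-fold above control, and at 8.31, 8.05, 7.7 and 8.19 in the 4 Mlkl-/- libraries, 13.8-fold above it (edgeR adjusted p = 1.5e-08 and 9.14e-08). Ccl5 was 7.93-fold and 7.26-fold higher, Cxcr4 7.3-fold and 5.73-fold, and Ccr7 8.98-fold and 12.6-fold (the latter 22.3-fold without Mlkl-/- control replicate 5). In Ripk3-/-, Ccl22 (8.35-fold, and 17.4-fold without control replicate 6), Cxcr6 (6.77-fold), Xcl1 (23.7-fold, counting interval 3.68 to 993) and Ccl4 (11.1-fold, 2.58 to 100) also rose. In Mlkl-/- Ccl22 (11.7-fold, 3.62 to 59.9), Ccl4 (10.5-fold, 3.21 to 54.1) and Cxcl5 (18.1-fold, 2.79 to 763) did. The Ripk3-/- count depends on replicate 3, which is 1 of only 3 libraries. Without it 8 members passed instead of 20, and Ccl22, Ccl4 and Cxcr6 were among those lost (edgeR adjusted p = 0.129, 0.0796 and 0.149). In that fit Ccl22 still stood 5.47-fold above control, Cx3cr1 10.4-fold and Ccr7 5.66-fold. Groups lay wholly apart for 11 higher and 2 lower members in Ripk3-/- (10.9% and 9.79% of all genes) and for 13 and 1 in Mlkl-/- (13.6% and 12.3%).

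Ccl25 was the 1 member that fell in all 6 diet comparisons, of which each pair within a genotype shares its control libraries. In Ripk3-/- it stood at 7.25 to 13.4 CPM in control, 3.96, 3.58 and 3.1 under CD-LFD and 4.16, 3.95, 3.15 and 3.24 on CD-HFD. In Mlkl-/- it stood at 6.71 to 9.42 CPM, then 3.9, 2.24, 3.69 and 5.06, then 3.48, 4.04 and 4.4. No diet library of either knockout reached its control group, and the log2 changes were -1.38 and -1.42 on CD-HFD and CD-LFD in Ripk3-/-, and -1.04 and -1.14 in Mlkl-/- (edgeR adjusted p = 8.26e-06, 0.000212, 0.00145 and 0.000369). With libraries scaled by size alone the fall on CD-HFD in Mlkl-/- missed the threshold (log2 -0.51, adjusted p = 0.131).

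Few members separated the knockouts from WT on normal chow, and Cxcl1 did so most. Cxcl1 stood at 15.5, 14.9, 169, 160, 23.9 and 77 CPM in the 6 Ripk3-/- control libraries and at 354, 188, 335, 258, 340 and 6.56 in the 6 Mlkl-/- ones, against 1.83 to 10.8 in WT. All Ripk3-/- libraries and 5 of the 6 Mlkl-/- libraries lay above every WT library, and Mlkl-/- replicate 6 lay within them. The mean was 14.1-fold higher in Ripk3-/- (log2 3.81, SE 0.65, edgeR adjusted p = 0.000236) and 45.3-fold higher in Mlkl-/- (log2 5.50, SE 0.681, adjusted p = 2.1e-07). Both calls held under all 22 alternatives, with log2 differences of 3.42 to 4.13 and 5.32 to 5.81. In all, 4 members were higher and 0 lower in Ripk3-/- (background 2.25% and 2.23%; 2 and 1 when scaled by library size alone, against 1.54% and 4.86%, and 3 and 1 with DESeq2's size factors, against 2.08% and 2.6%), and 5 were higher and 2 lower in Mlkl-/- (13% and 14.1%). 1 member lay wholly above WT in each, Cxcl1 in Ripk3-/- (0.572% of all genes) and Ccl6 in Mlkl-/- (3.08%), and 0 lay wholly below it (0.35% and 1.87%).

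Cxcl2 was at 0, 0, 0, 0.945, 0.698 and 0.241 CPM in Ripk3-/- control liver and at 0.646, 1.52, 1.63, 0.583, 1.1 and 0.149 in Mlkl-/-, where it was higher than in WT (25.3-fold, counting interval 4.27 to 1028, edgeR adjusted p = 0.000842); in Ripk3-/- it missed the threshold (adjusted p = 0.139). Ccl6 stood at 4.08, 1.68, 8.31, 6.46, 10.6 and 10.6 CPM in Ripk3-/- and 11.6, 8.04, 9.17, 14.7, 5.52 and 4.77 in Mlkl-/-, against 0.913 to 4.14 in WT, 2.96-fold and 3.82-fold higher (edgeR adjusted p = 0.0262 and 0.000671). Cxcr2 averaged 0.788 and 0.841 CPM against 0.0815 in WT (edgeR adjusted p = 0.0473 and 0.0122) and Ccl19 0.505 and 0.396 (adjusted p = 0.0452 and 0.0386). The WT control group held 2 counts of each. In Ripk3-/- the Cxcr2 and Ccl19 calls were each lost without any 1 of 9 libraries (edgeR adjusted p 0.0558 to 0.122 and 0.0635 to 0.111), and the Ccl6 call without any 1 of 5 (0.0593 to 0.0847), and leaving out the libraries labelled Ripk3-/- control replicate 5 and Mlkl-/- CD-HFD replicate 1 left 1 call, Cxcl1. In Mlkl-/- the Ccl19 call was lost without any 1 of 8 libraries (0.0551 to 0.0998). Ccl27a and Cxcl11 were 2.31-fold and 3.09-fold lower in Mlkl-/- than in WT (edgeR adjusted p = 0.00215 and 0.00266), but WT control replicates 5 and 6 held the highest values (26.5 and 18.6 CPM for Ccl27a, 13.2 and 14.7 for Cxcl11), and without that pair neither passed (log2 -0.55 and -0.65, adjusted p = 0.138 and 0.227).

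Acute phase and metal response genes were also high in most of the knockout control libraries. Mt1 (metallothionein), at 5.84 to 18.7 CPM in WT control, averaged 810 in Ripk3-/- control (84 to 1365) and 2307 in Mlkl-/- control, where replicate 6, the library with low Cxcl1, was the lowest at 24.2. Lcn2 and Saa1, hepatic acute phase genes, averaged 2.44 and 24 CPM in WT control, 325 and 3199 in Ripk3-/- and 339 and 1894 in Mlkl-/-, and the same Mlkl-/- library was again the lowest, at 16.3 and 473. In Ripk3-/- the order differed: replicate 5 had the most Lcn2 (806) and Saa1 (9103) with 23.9 CPM of Cxcl1, while replicates 3 and 4 had the most Cxcl1. Ripk3-/- replicates 1 and 2, at 15.5 and 14.9 CPM of Cxcl1, had Saa1 (13.2 and 37.9) and Lcn2 (2.53 and 5.45) within the WT control range, 12.3 to 43.7 and 0.456 to 6.6. Neutrophil markers summed to 7.77 CPM in Ripk3-/- control and 11.3 in Mlkl-/- control. In Mlkl-/- control S100a8 was higher than in WT (log2 1.48, edgeR adjusted p = 0.0476), S100a9 missed the threshold (1.40, adjusted p = 0.0588) and Csf3r gave 0.02. The log2 ratio of the clock genes Arntl and Dbp, which peak at opposite times of day, spread from -7.36 to 2.62 in WT control, from -6.93 to -5.46 in Ripk3-/- and from -4.85 to -3.58 in Mlkl-/-; with that ratio as a covariate the Cxcl1 differences were kept. The part of the acute phase and neutrophil genes in the Cxcl1 difference was not tested.

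**Figure D3:**
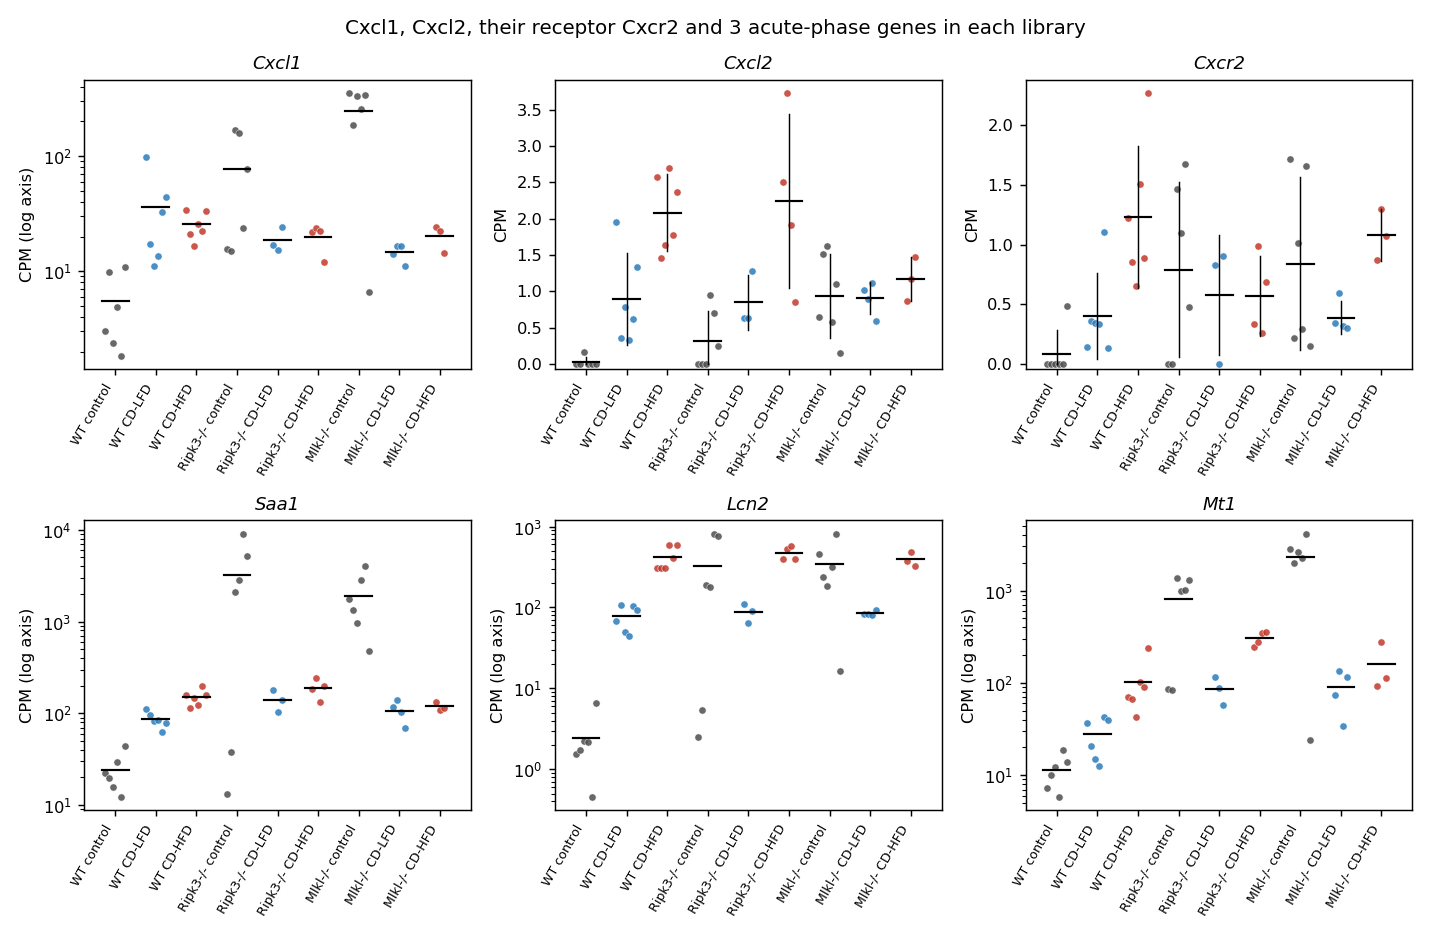
CPM per library of Cxcl1, Cxcl2, Cxcr2 and the companion genes Saa1, Lcn2 and Mt1 in the 9 groups (control grey, CD-LFD blue, CD-HFD red; horizontal line, mean; vertical line, SD, shown on the linear panels Cxcl2 and Cxcr2; log axes for Cxcl1, Saa1, Lcn2 and Mt1). Cxcl1 is highest in the Mlkl-/- control libraries, 5 of which lie between 188 and 354 CPM, and lies between 11.2 and 97.9 in every library on a choline deficient diet.

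**Figure D4:**
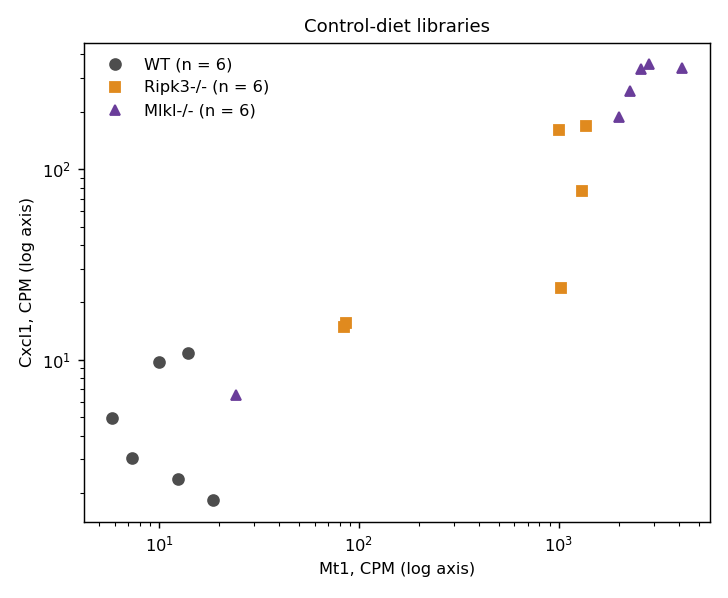
Cxcl1 CPM (vertical, log axis) against Mt1 CPM (horizontal, log axis) in the 18 control diet libraries, coloured by genotype. The 6 WT libraries and Mlkl-/- replicate 6 lie at the lower left, and the 5 other Mlkl-/- libraries at the upper right with Cxcl1 at 188 CPM or more.

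On the choline deficient diets every Cxcl1 value of the 3 genotypes lay between 11.2 and 97.9 CPM. Cxcl1 stood at 16.9, 15.4 and 24.2 CPM in Ripk3-/- and 14.2, 16.5, 16.5 and 11.2 in Mlkl-/- on CD-LFD, and at 22, 23.6, 22.3 and 12.1 and at 24.4, 22.3 and 14.3 on CD-HFD. Against WT on the same diet the log2 differences on CD-HFD were -0.35 in Ripk3-/- (95% interval -1.57 to 0.86) and -0.33 in Mlkl-/- (-1.67 to 1.01), and on CD-LFD -0.92 (-2.29 to 0.46) and -1.30 (-2.56 to -0.04). No member passed the test between a knockout and WT on CD-LFD or CD-HFD in edgeR (background 0.794% higher and 0.31% lower for Ripk3-/- and 1.64% and 0.929% for Mlkl-/- on CD-LFD, 0.209% and 0.168% and then 0% and 0% on CD-HFD). At an unadjusted p under 0.05 the CD-LFD comparisons had 3 members for Ripk3-/- and 4 for Mlkl-/- (7.32% and 9.76% of members, 11.4% and 15.6% of all genes), and the CD-HFD ones 5 and 3 (12.2% and 7.32%, against 8.73% and 8.38%). DESeq2 called 0 and 1 and then 0 and 0. The Cxcl1 interval for Mlkl-/- on CD-LFD lies below 0 before adjustment and the other 3 include 0; differences within these intervals were not detectable at this number of libraries.

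Against its own control, Cxcl1 therefore fell on the diets in the knockouts, by 3.61 on the log2 scale on CD-HFD and 4.08 on CD-LFD in Mlkl-/- (12.2-fold and 16.9-fold; edgeR adjusted p = 0.000269 and 3.54e-05), and by 1.95 and 2.01 in Ripk3-/- (3.84-fold and 4.08-fold; adjusted p = 0.0127 and 0.041). In every case the groups overlapped. In the CD-LFD comparison in Mlkl-/- the neutrophil genes S100a8 and S100a9 also fell, by 1.81 and 1.90 on the log2 scale (edgeR adjusted p = 0.0192 and 0.0169), and on CD-HFD they gave 0.53 and 0.32 (adjusted p = 0.449 and 0.678). Csf3r, the most abundant of the neutrophil markers, rose in both, by log2 1.08 and 2.04 (adjusted p = 0.0125 and 8.31e-06). The part of these genes in the Cxcl1 change was not tested. With library size scaling the CD-HFD fall in Ripk3-/- missed the threshold (log2 -1.41, edgeR adjusted p = 0.0621), and the CD-LFD fall missed it in 9 of 19 alternatives, among them without any 1 of 6 libraries (adjusted p 0.0535 to 0.121). Tested as a difference between genotypes in the diet change, Cxcl1 gave log2 -5.83 in Mlkl-/- for CD-HFD (95% interval -7.83 to -3.82, edgeR adjusted p = 0.000944) and -6.80 for CD-LFD (-8.68 to -4.91, adjusted p = 2.67e-05). In Ripk3-/- it gave -4.17 for CD-HFD (-5.96 to -2.38, edgeR adjusted p = 0.0219) and missed the threshold for CD-LFD (-4.73, adjusted p = 0.0599). The Ripk3-/- call for CD-HFD was lost without control replicate 3 or 4 or CD-HFD replicate 1 or 5 (edgeR adjusted p 0.0503 to 0.0783) and with the clock covariate (0.0646). These interactions use the same control libraries as the comparison of knockout with WT on the control diet.

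Cxcl2 also gave negative interactions in Mlkl-/-, for CD-HFD and CD-LFD (edgeR adjusted p = 0.007 and 0.0152); WT control held 1 count of it, so their fitted size is not a measure of the difference. On CD-HFD it stood at 2.5, 3.73, 1.92 and 0.853 CPM in Ripk3-/- and at 0.871, 1.17 and 1.47 in Mlkl-/-; against its own control it rose 7.17-fold in Ripk3-/- (edgeR adjusted p = 0.000168; 12-fold without control replicate 4) and gave log2 0.33 in Mlkl-/- (adjusted p = 0.675). The difference between the knockouts was not tested. Cxcl12 gave log2 0.82 for CD-LFD in Mlkl-/- (edgeR adjusted p = 0.0368), from 258 ± 61.2 CPM (SD, n = 6) on the control diet to 276, 277, 294 and 273, where WT fell; this call was lost in 19 of 32 alternatives, 14 of them the loss of 1 library (adjusted p 0.0502 to 0.07). Cxcr2, called against control on CD-HFD in WT alone, gave interactions that missed the threshold (log2 -4.34 in Ripk3-/- and -3.42 in Mlkl-/-, edgeR adjusted p = 0.0777 and 0.0976). Of all tested genes 0.135% had a positive and 0.343% a negative interaction in Ripk3-/- on CD-HFD, 0.00673% and 0.0202% on CD-LFD, 1.58% and 2.54% in Mlkl-/- on CD-HFD and 4.37% and 4.08% on CD-LFD. The members passing numbered 1, 0, 2 and 3 in the same order. For the 0, 6 members (14.6%) had an unadjusted p under 0.05, as did 8.28% of all genes, and DESeq2 called 1 lower, against 0.233% of all genes.

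Per length of transcript, Cxcl12 and Ccl9 were the most abundant members of WT control liver, at 37.2 ± 10.7 and 15.8 ± 4.8 RPKM (CPM per kilobase of exon; SD, n = 6), 44.7% and 19% of the summed level of the 58 genes. Cxcl1 made up 3.5% there, 15.9% on CD-LFD (19.3 ± 17.5 RPKM) and 7.27% on CD-HFD. In Ripk3-/- control it was second to Cxcl12, at 40.9 ± 38.3 against 43.9 ± 6.05 RPKM, with overlapping ranges of mean ± SD, and in Mlkl-/- control it was the highest, at 132 ± 71.3 RPKM and 64.1% of the summed level, with Cxcl12 at 31.5 ± 7.48. On CD-HFD Cxcl12 and Ccl9 stood at 29.6 ± 6.37 and 25.5 ± 3.67 RPKM in WT, at 31 ± 4.28 and 33.7 ± 3.27 in Ripk3-/- (n = 4) and at 32.6 ± 5.05 and 26.4 ± 3.56 in Mlkl-/- (n = 3), and within each genotype the ranges of mean ± SD of these neighbours in the order overlapped. Ccl5 and Cxcl1 followed in WT at 13.7 ± 3.74 and 13.6 ± 3.72 RPKM, overlapping each other, and Ccl6 in Ripk3-/- and Mlkl-/- at 15 ± 4.85 and 16.9 ± 6.21.

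**Figure D5:**
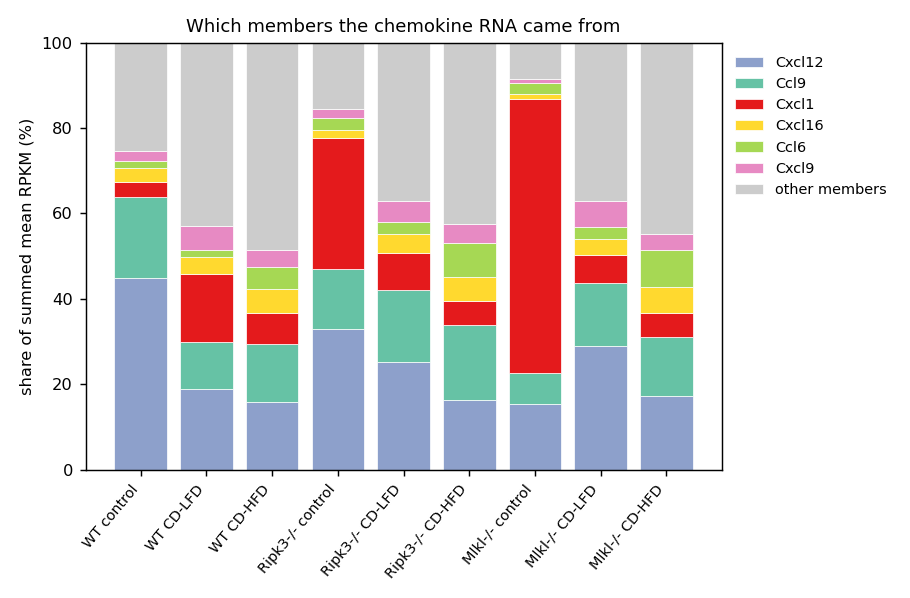
Share (percent, vertical) of the summed mean RPKM of the 58 genes taken by Cxcl12, Ccl9, Cxcl1, Cxcl16, Ccl6, Cxcl9 and all others in each of the 9 groups (horizontal). Cxcl12 takes 44.7% in WT control, and Cxcl1 takes 64.1% in Mlkl-/- control and 30.8% in Ripk3-/- control.

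Of 31 other genes of chemokine signalling (platelet chemokines and related receptors, signalling proteins below the receptors, and proteases that trim or shed chemokines), 30 were tested. The list was chosen with earlier results of these data known. In WT 24 rose and 2 fell on CD-HFD (median log2 1.77) and 13 rose and 0 fell on CD-LFD (median 0.71), beside the medians of -0.07 and -0.03 over all genes, of which 23.5% rose and 24.1% fell on CD-HFD and 13.7% and 14% on CD-LFD. In Ripk3-/- 24 rose and 1 fell on CD-HFD (background 24.6% and 21.7%) and 12 rose and 0 fell on CD-LFD (14% and 10.1%). In Mlkl-/- the numbers were 23 and 1 (24.9% and 20.3%), and 13 and 3 (19.7% and 18.3%). Pik3r5, the adaptor of the phosphoinositide kinase that works below G protein coupled receptors, rose from 0.765 to 17.3 CPM in WT on CD-HFD (log2 4.78, SE 0.397, edgeR adjusted p = 6.12e-13). Its catalytic partner Pik3cg went from 0.46 to 4.13 CPM (edgeR adjusted p = 1.01e-08), Was, which links receptor signals to actin, from 0.719 to 6.89 (adjusted p = 1.24e-10), and the platelet chemokine Pf4 from 0.504 to 4.85 (adjusted p = 1.4e-09). The WT control means of these named genes were under 1.48 CPM, and 53.5% of all genes below that level rose on CD-HFD. Unlike the members, this list was not split by control level.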

How the data were processed

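The authors deposited 1 table of raw counts per gene for the 44 liver libraries. Per the submitters' processing notes the tools were FastQC, STAR, HTSeq, edgeR and limma and the build was GRCm39 (mm39), with no versions or roles, and per the labels' protocols total RNA was made into directional libraries. From the deposited counts, 34373 of 35249 gene IDs were matched to symbols (the 876 unmatched held 0.0838% of counts). All 44 libraries were fitted in 1 model of 9 groups with edgeR 4.0.16 (R 4.3.3, TMM scaling with factors 0.799 to 1.34, quasi-likelihood F test) after a filter at a minimum count of 10, which kept 14862 genes with 99.8% of counts. P-values were adjusted by Benjamini-Hochberg over all tested genes within each of 17 comparisons, with a threshold of 0.05, and the script was tested on simulated data. CPM used the TMM-scaled library size, and RPKM the exon length of GENCODE M21. Intervals are 95%. A fold is the ratio of mean CPM. Against a group with 0 counts in all its libraries it is a bound at 3 counts over the group, and against one with 1 to 3 counts it is the ratio of pooled CPM with its exact (Clopper-Pearson) interval; both cover counting error only. Promoters and their coordinates come from RefSeq GRCm38.p6 and were not joined to the files' build. No pair of libraries within a group had counts that agree within sampling noise.

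The members and lists were chosen with earlier results of these data known. In WT on CD-HFD against control every member past the threshold is named, apart from 1 that is not reported here, in each other diet comparison the 8 with the largest log2 change, and in the comparisons with WT and the interactions all of them, with untested or unchanged partners given by value. The labels do not say that replicate numbers pair the libraries, and in no comparison did every same-numbered pair correlate above 0.1, so the fit has no block. Some pairs did correlate. In WT on CD-HFD against control the correlations ran from -0.154 to 0.441, and 4 of 6 libraries matched their own number best. These values do not settle whether some libraries were paired or shared a batch. The alternatives were DESeq2 1.42.0, its size factors, library size alone, no count filter, a robust fit, the compared groups alone, the replicate block, the log2 ratio of Arntl to Dbp as a covariate, and fits without single libraries, without WT control replicates 5 and 6, or without the library labelled Ripk3-/- control replicate 5 and that labelled Mlkl-/- CD-HFD replicate 1.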

Additional observations from a re-analysis of the deposited data

Results flagged for a closer look

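In 37 of 275 groups of 4 to 10 libraries (13.5%), the highest or the lowest library of a member stood far from the others. The cut-offs give about 1 in 20 by chance for normally distributed values. Low counts are not distributed so, and the 13.5% is not shown to exceed chance. Many of the flagged libraries hold 1 to a few counts in a group otherwise at or near 0. In WT control they were Ackr3 in replicate 3 (2.04 CPM), Ackr4 in replicate 5 (3.65), Ccl25 in replicate 5 (18.7), Ccl5 in replicate 5 (2.28), Cxcl13 in replicate 5 (4.56), Ccl2 in replicate 6 (2.2), Ccl22 and Cxcr2 in replicate 6 (0.489 each), Ccl4 and Ccr1 in replicate 6 (0.733 each), Ccl19 in replicate 3 (0.341), Ccl7, Cxcl2 and Xcl1 in replicate 3 (0.17 each) and Cxcr3 in replicate 3 (0.851), with Cx3cl1 low in replicate 2 (0). Replicates 3, 5 and 6 gave all the high values of that group.

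On the choline deficient diets in WT, the libraries far from the rest were Ccl20 in CD-LFD replicate 6 (1.46 CPM) and CD-HFD replicate 3 (1.75), Ccl6 in CD-HFD replicate 3 (32.4), Cxcl10 in CD-LFD replicate 1 (25.1), and Ccl21a (0.742) and Cxcr2 (1.11) in CD-LFD replicate 5. In Ripk3-/- they were Ackr1 in control replicate 5 (1.4), Ccl22 (0.481) and Xcl1 (0.241) in control replicate 6, Ccr1 in CD-HFD replicate 3 (3.5) and, on the low side, Cxcl1 in CD-HFD replicate 5 (12.1). In Mlkl-/- control they were Ccl2 in replicate 1 (4.74), Ccl22 in replicate 2 (0.434), Cxcl13 (2.63) and Cxcr6 (1.6) in replicate 4, and Ccl21a (0.828) and Cxcl5 (0.138) in replicate 5. In Mlkl-/- CD-LFD they were Cxcr2 in replicate 2 (0.596), Cxcl12 in replicate 3 (294) and Cxcl11 in replicate 4 (11.8), with Cxcr6 (0.447) low in replicate 4.

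The diet change differed between a knockout and WT, by the interaction term of edgeR's quasi-likelihood test, for Cxcl1 in Ripk3-/- on CD-HFD (log2 -4.17), for Cxcl1 and Cxcl2 in Mlkl-/- on CD-HFD (-5.83 and -5.03), and for Cxcl1, Cxcl2 and Cxcl12 in Mlkl-/- on CD-LFD (-6.80, -4.20 and 0.82). The sizes for Cxcl2 rest on 1 count in WT control.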

How the results depend on the processing

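Of 4114 single-gene values computed for the 200 calls under the alternatives, 3891 kept their direction and their side of the threshold, 222 kept the direction alone and 1 reversed: Cxcl12 on CD-HFD against control in Ripk3-/- gave log2 0.03 with library size alone. 150 calls held in every alternative run for them. Library size alone moved the median log2 change of all genes on CD-HFD to 0.43, 0.49 and 0.49 in WT, Ripk3-/- and Mlkl-/-, and on CD-LFD to 0.27, 0.32 and 0.20. With the compared groups alone, where fewer members passed the filter, the counts of members past the threshold were, on CD-LFD against control 11 of 18 tested in place of 25 of 41 in WT (background 8.38% higher and 6.76% lower), 10 of 19 in place of 20 in Ripk3-/- (9.82% and 8.7%) and 12 of 20 in place of 21 in Mlkl-/- (20.7% and 21.7%), between knockout and WT on control 1 of 12 in place of 4 for Ripk3-/- and 4 of 12 in place of 7 for Mlkl-/-, and 1 of 23 in place of 0 for Mlkl-/- against WT on CD-LFD and 1 of 24 in place of 3 for its CD-LFD interaction. The Ripk3-/- difference from WT on control numbered 2 without a filter, 1 with the clock covariate and 1 without the pair of libraries at odds with their labels. Without WT control replicates 5 and 6 the counts were 1 and 2 for Ripk3-/- and Mlkl-/- against WT on CD-LFD, 2 and 1 for the Ripk3-/- interactions with CD-HFD and CD-LFD and 6 for that of Mlkl-/- with CD-LFD. DESeq2 gave 1 for Mlkl-/- against WT on CD-LFD, 1 for the Ripk3-/- interaction with CD-LFD and 1 for that of Mlkl-/- with CD-HFD. The Ripk3-/- interaction with CD-HFD numbered 0 with the clock covariate, and that with CD-LFD 1 without a filter and 1 without the pair at odds with their labels. The causes of these changes were not tested.

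Leaving out 1 library at a time gave 32 to 35 (WT), 29 to 33 (Ripk3-/-) and 28 to 32 (Mlkl-/-) on CD-HFD, 24 to 28, 8 to 21 and 18 to 22 on CD-LFD, 13 to 20 for CD-HFD against CD-LFD in WT, 1 to 7 and 6 to 8 for the knockouts against WT on control, 0 to 1 for Mlkl-/- against WT on CD-LFD, 0 to 2 and 0 to 1 for the Ripk3-/- interactions with CD-HFD and CD-LFD, and 2 to 3 and 2 to 6 for those of Mlkl-/-. With the replicate block, whose same-numbered pairs correlated between -0.33 and 0.545, the Ripk3-/- difference from WT on control numbered 2 in place of 4 and no other count moved by over 1.5 times. Group levels moved by more than their SD in 46 of 369 cases when CPM was taken over the library total. Members under about 1 CPM rest on a few counts per library, which limits what a fold can show.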

Other observations

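The genes here were chosen after their values were seen. Cxcl14 stood at 15.6 and 19.7 CPM in Ripk3-/- control replicates 5 and 6 and at 0.583 to 2.77 in the other 4 libraries of that group, while the CD-HFD libraries of that genotype stood at 12, 11.8, 14 and 16.3. The same 2 control libraries had the most Lcn2 of their group, 806 and 765 CPM.

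Cxcl11 rose on CD-LFD in Ripk3-/- (2.65-fold, edgeR adjusted p = 0.0161, and 0.0783 without CD-LFD replicate 1) and in Mlkl-/- (2.98-fold, adjusted p = 0.00241), with no overlap in either, and gave log2 0.25 in WT (adjusted p = 0.623). The difference from WT in this change did not pass the test (edgeR adjusted p = 0.597 and 0.118). Ackr3, which removes Cxcl12, rose on CD-HFD in Ripk3-/- (3.78-fold, edgeR adjusted p = 0.00374) and in Mlkl-/- (3.01-fold, adjusted p = 0.0116, and 0.0562 without CD-HFD replicate 4), and gave log2 0.55 in WT; the differences missed the threshold (adjusted p = 0.515 and 0.455). Ackr2, lower on CD-HFD in WT, gave log2 -0.16 in Ripk3-/- and -0.83 in Mlkl-/-, and here too the differences missed it (adjusted p = 0.228 and 0.409).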
